A study of Mus musculus with 6 samples.

Results

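The amyloid precursor protein (App) family and the proteases that cleave it were followed in the mouse entorhinal cortex (EC), left side against right side. The members were taken from the authors' deposited table of all genes by gene symbol. The list named 9 genes, and 8 of the 18746 genes in that table carried one of these symbols: App, Aplp1, Aplp2, Adam10, Bace1, Bace2, Ncstn and Aph1a. Psen2, encoding presenilin 2, was matched neither by symbol nor by gene identifier and counts as not measured here.

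The left EC was the group set against the right EC. Each side was represented by 3 arrays (6 in all) from wild-type C57BL/6 mice aged 6 months that had received no treatment, so that genotype, strain and age were shared by both sides. Total RNA of the dissected cortex was read on Affymetrix Mouse Gene 2.0 ST arrays, which carry probes along the transcripts of most genes. The labels call the samples biological replicates and do not say whether samples of opposite sides share a mouse.

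App is a membrane protein of neurons and other cells, and Aplp1 and Aplp2 are its homologues. Alpha-secretase, chiefly Adam10 in neurons, cuts App within the amyloid-beta sequence and releases a soluble ectodomain. The beta-site protease Bace1 cuts at the start of that sequence instead, after which gamma-secretase, a membrane complex of a presenilin, nicastrin, an Aph1 protein and Pen-2, liberates amyloid-beta. The EC, which links the neocortex with the hippocampus, is among the first regions affected in Alzheimer disease. Only amounts of RNA were measured here, not the proteins or their activity.

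No side difference was detected for any member, given the spread between the samples. Of the 8 members, 0 had a deposited p under 0.05, against 7.86% of all genes in the authors' deposited table, and the members' deposited p-values ran from 0.13 to 0.993. After Benjamini-Hochberg adjustment over the 18746 genes, the members' adjusted p ran from 0.706 to 0.998, and 0 genes of the whole table (0%) passed 0.05. Folds were above 1 in the left EC for 5 members and below 1 for 3 in the authors' deposited table, where 54% of all genes had folds above 1. Their median log2 fold, left over right, was 0.01, and the median over all genes was also 0.01.

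Each named gene has only its signed fold and p-value from the authors' deposited table, with no value per array. A standard error (SE) was therefore computed here for each log2 fold from the deposited fold and p, with 5.95 degrees of freedom. That number was inferred from the table, because the implied SE had a lowest value that was nearly the same at all sizes of fold binned (0.0352 to 0.0353), as a moderated test gives. Intervals below are 95% intervals made with these SEs, and every difference is on the log2 scale, left over right. A positive log2 fold was read as higher in the left EC. The title line of the table names left before right, and its most extreme log2 fold, -2.48, has the sign and size of the most extreme left minus right difference of the per-array table (-2.48).

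The precursor genes are shown first with the sequence before their transcription starts, which is not part of the transcripts that the arrays read. These are the 250 bases upstream of a start from RefSeq on mouse build GRCm38.p6, where capitals mark the GC box, GGGCGG or CCGCCC on either strand, a motif bound by Sp1-type factors.
App, chr16:85173708-85173957, minus strand: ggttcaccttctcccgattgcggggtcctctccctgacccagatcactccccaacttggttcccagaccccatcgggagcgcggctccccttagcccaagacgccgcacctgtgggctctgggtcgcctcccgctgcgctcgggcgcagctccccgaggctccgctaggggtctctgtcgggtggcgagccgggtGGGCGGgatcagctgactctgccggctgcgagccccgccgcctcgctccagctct
Aplp1, chr7:30445583-30445832, minus strand: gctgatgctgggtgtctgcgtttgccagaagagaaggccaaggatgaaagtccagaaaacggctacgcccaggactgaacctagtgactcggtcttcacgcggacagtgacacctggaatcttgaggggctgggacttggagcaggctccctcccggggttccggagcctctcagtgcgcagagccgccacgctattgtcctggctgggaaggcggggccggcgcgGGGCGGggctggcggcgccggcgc
Aplp2, chr9:31211849-31212098, minus strand: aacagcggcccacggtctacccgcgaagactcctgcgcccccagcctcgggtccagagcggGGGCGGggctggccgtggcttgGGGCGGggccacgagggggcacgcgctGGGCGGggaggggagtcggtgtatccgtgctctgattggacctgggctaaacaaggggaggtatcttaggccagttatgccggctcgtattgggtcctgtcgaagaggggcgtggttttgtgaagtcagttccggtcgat

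App and Aplp1 held 1 GC box each in this window and Aplp2 held 3. Guanine and cytosine made up 70.8% of the App window, 66% of the Aplp1 window and 66.4% of the Aplp2 window, against a median of 52.4% over all 32851 promoters of the table. RefSeq promoters were matched for 6 of the 8 measured members, and Bace1 and Bace2 were not matched. Of the 6 windows, 5 held a GC box, against 32.7% of all windows of the same length, and 0 held the TATA box TATAAA or TTTATA, against 12.4% of all windows. These letters are a description of the start sites, and the arrays do not bear on their use.

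The precursor genes all had folds just above 1 in the left EC. App itself was 1.02-fold higher in the left EC in the authors' deposited table (deposited p = 0.442), a log2 difference of 0.03 with an SE of 0.036. Its interval ran from -0.06 to 0.12, which puts the largest difference within it at 1.08-fold higher in the left EC and 1.04-fold lower. Aplp2, the homologue expressed in most tissues, was 1.02-fold higher in the left EC in the authors' deposited table (deposited p = 0.526), with an interval of -0.07 to 0.12. Aplp1, the homologue confined largely to neurons, was 1.01-fold higher in the left EC in the authors' deposited table (deposited p = 0.67), with an interval of -0.08 to 0.11. All 3 intervals span 0 and overlap almost wholly, so no side difference was detectable for any of them, and differences between the precursor genes were not tested.

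Adam10, the membrane metalloproteinase that acts as alpha-secretase, had the smallest fold in either direction among the members. Its log2 difference in the authors' deposited table rounded to 0.00 (deposited p = 0.993), with an SE of 0.041. Only 0.368% of all genes had a smaller fold in either direction. The interval of -0.10 to 0.10 still allows 1.07-fold either way, and the sign of so small a difference turns when the folds are centred on the median of all genes (-0.0064).

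The beta-site proteases both had folds below 1 in the left EC. Bace1, the aspartic protease that makes the first amyloidogenic cut, was 1.04-fold lower in the left EC in the authors' deposited table (deposited p = 0.321). Its log2 difference of -0.05 had an SE of 0.047 and an interval of -0.17 to 0.06. Bace2, a homologue that cuts App within the amyloid-beta sequence, was 1.08-fold lower in the left EC in the authors' deposited table (deposited p = 0.193). This was the largest fold among the members, a log2 difference of -0.11, and 77.6% of all genes had a smaller one. It also had the largest implied SE of the members, 0.072, and an interval of -0.28 to 0.07. A difference of up to 1.22-fold lower in the left EC lies within that interval, the widest bound of any member, so for Bace2 a modest difference was not detectable with these arrays.

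**Figure D1:**
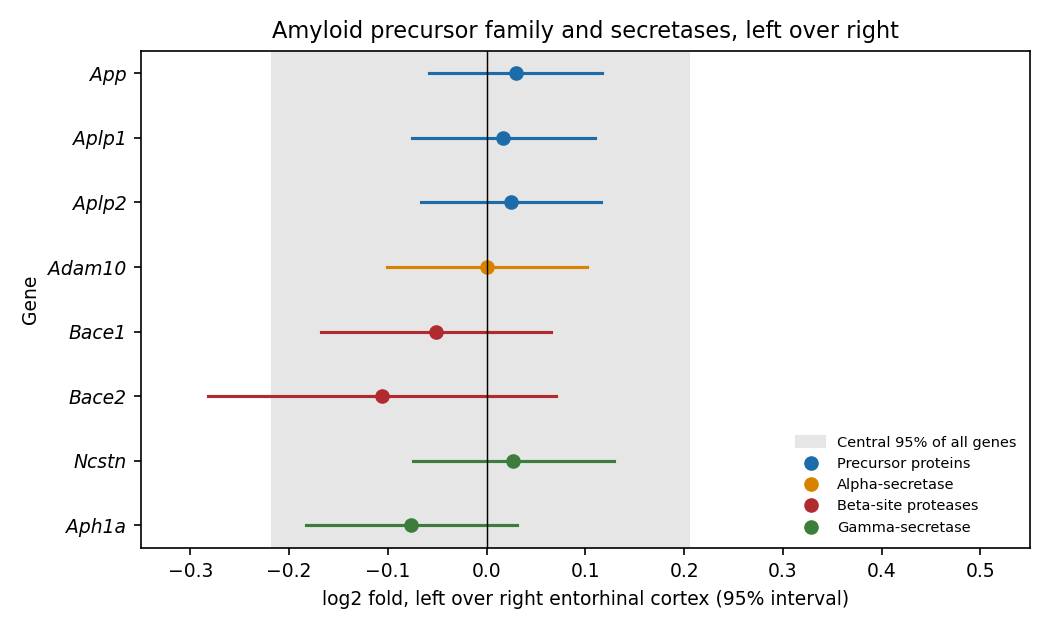
Log2 fold of each measured member, left over right EC (horizontal axis), grouped by role, with points for the fold of the authors' deposited table and bars for the 95% interval computed from its fold and p. All 8 intervals include 0, and the grey band, from -0.22 to 0.20, holds the central 95% of all genes.

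The gamma-secretase subunit genes Ncstn and Aph1a lay on opposite sides of 0, and the related subunit genes Psenen and Aph1c lay below 0. Ncstn, encoding nicastrin, the glycoprotein subunit that takes part in substrate recognition, was 1.02-fold higher in the left EC in the authors' deposited table (deposited p = 0.537), with an interval of -0.07 to 0.13. Aph1a, encoding a scaffold subunit of the complex, was 1.05-fold lower in the left EC in the authors' deposited table and had the smallest deposited p of the members, 0.13. Its log2 difference of -0.08 had an SE of 0.044 and an interval of -0.18 to 0.03. For Aph1a 18.4% of all genes had a smaller p, and the adjusted p was 0.706. The intervals of Ncstn and Aph1a overlap, and the difference between the subunits was not tested, because no values per array can be tied to them.

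The implied SE of most members was smaller than that of a typical gene. Each SE is itself an estimate from 3 arrays per side, so the order of single genes by SE is a description. Among the 17676 genes with a single row, the median SE was 0.057, and 7 of the 8 members had a smaller one. App stood nearest to the lowest value in the table: 0.436% of these genes had a smaller SE, a share that was 0.492% to 1.61% with other degrees of freedom. A smaller SE than that of Aplp2 was found for 3.45% of the genes, and than that of Aplp1 for 5%. The share for Adam10 was 15.2%, for Ncstn 15.9%, for Aph1a 21.6% and for Bace1 31.3%. Bace2 was the exception, where 68.5% of the genes had a smaller SE. The interval lay within 1.1-fold either way for 5 members, App, Aplp1, Aplp2, Adam10 and Ncstn, as it did for 19.4% of single-row genes. The bound of Bace2, 1.22-fold, was met by the intervals of 73.6% of single-row genes. The signal level of the named genes is not known from the table, so its relation to these SEs was not tested.

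**Figure D2:**
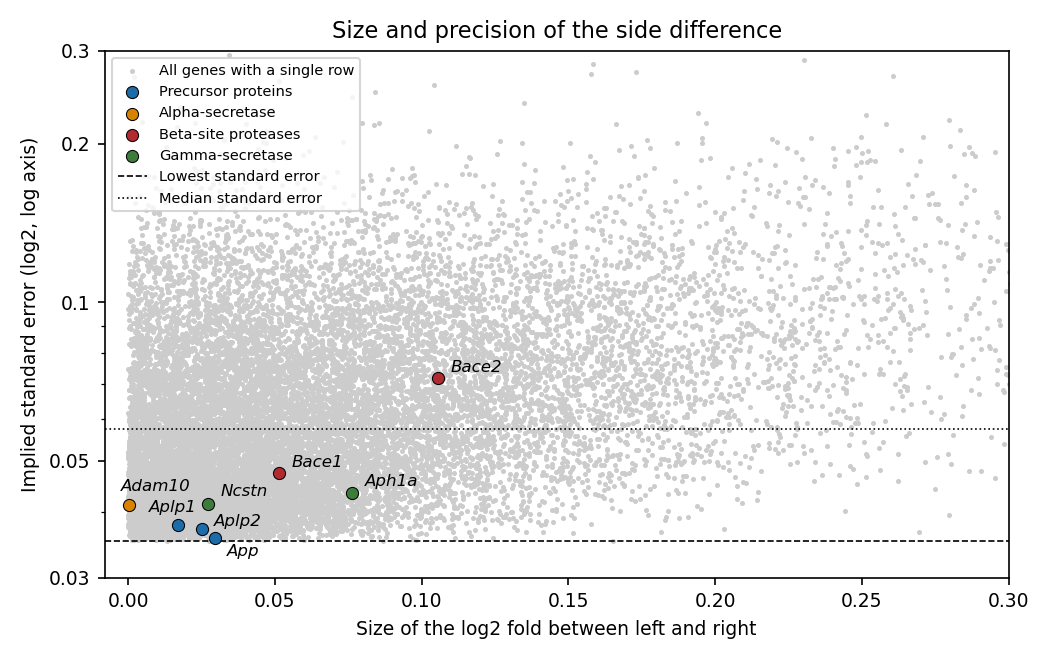
Size of the log2 fold between the sides (horizontal axis) against the implied standard error of that fold (vertical log axis) for single-row genes in grey and the 8 members in colour. The precursor genes lie just above the dashed line of the lowest standard error (0.0352), and Bace2 alone lies above the dotted median (0.057). Genes with a log2 fold over 0.3 or a standard error over 0.3 lie outside the axes.

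None of the related genes of the pathway passed adjustment either. The 5 lists held 91 such genes, of which 69 were measured. Of these, 39 had folds above 1 in the left EC and 30 had folds below 1, while 54% of all genes had folds above 1. A deposited p under 0.05 was found for 1 of the 69 with a higher level in the left EC, against 3.77% of all genes, and for 4 with a lower level in the left EC, against 4.09% of all genes. After adjustment over all genes 0 of the 69 passed. Their median log2 fold was 0.01.

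Once rows of a gene were averaged, the remaining gamma-secretase subunits and the regulators of the complex all had folds slightly below 1 in the left EC. This held for 7 of 7 measured genes on a list of 8, with a median log2 fold of -0.03. Of all genes, 46% had folds below 1 in the left EC. Single rows lay on both sides of 0 for Tmed2 (log2 folds of -0.08 and 0.03) and for Tmed10, so the count rests on the averaging. With rows of a gene averaged, none had a p under 0.05, against 7.86% of all genes, while 1 row of Tmed10 did. Psenen, encoding the Pen-2 subunit, had a pair of rows in the authors' deposited table, both 1.04-fold lower in the left EC (deposited p = 0.145 and 0.195). Gsap, the gamma-secretase activating protein, listed under its older symbol Pion, was 1.05-fold lower in the left EC in the authors' deposited table (deposited p = 0.305). Tmed10, a transport protein that binds the complex, was 1.04-fold lower in the left EC when 3 rows in the authors' deposited table were averaged (p = 0.329 after averaging). The log2 folds of those rows ran from -0.16 to 0.01, with deposited p-values of 0.0281, 0.424 and 0.949. Aph1c, a paralogue of Aph1a, was 1.02-fold lower in the left EC in the authors' deposited table (deposited p = 0.488), and is given because it can replace Aph1a in the complex, a choice made after its value was seen.

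Among the relatives and regulators of alpha-secretase, 14 of 21 listed genes were measured, with a median log2 fold of 0.00. In 3 the deposited p was under 0.05, all with lower levels in the left EC, a direction in which 4.09% of all genes had such a p. Tspan33 and Tspan15 encode tetraspanins that escort Adam10 to the cell surface. Tspan33 was 1.11-fold lower in the left EC in the authors' deposited table (deposited p = 0.019), with an interval of -0.26 to -0.03. Tspan15 was 1.12-fold lower in the left EC in the authors' deposited table (deposited p = 0.0312), with an interval of -0.30 to -0.02. Timp4, a tissue inhibitor of metalloproteinases, was 1.11-fold lower in the left EC in the authors' deposited table (deposited p = 0.0346). The adjusted p was 0.601 for Tspan33, 0.621 for Tspan15 and 0.63 for Timp4, so none passed over all genes. The other measured tetraspanins of this class, named after their values were seen, lay on both sides of 0. Tspan5 and Tspan14 were 1.06-fold and 1.05-fold higher in the left EC in the authors' deposited table (deposited p = 0.0777 and 0.181). Tspan10 and Tspan17 were 1.03-fold and 1.02-fold lower in the left EC in the authors' deposited table (deposited p = 0.631 and 0.601).

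Adaptors and trafficking proteins of App, which bind its tail or sort it between membranes, showed 0 of 19 measured genes with a deposited p under 0.05, against 7.86% of all genes. The smallest deposited p belonged to the receptor gene Lrp1b, 1.17-fold lower in the left EC in the authors' deposited table (deposited p = 0.0736). Gga1, a sorting adaptor that also binds Bace1, was 1.06-fold lower in the left EC in the authors' deposited table (deposited p = 0.0904). Sort1, encoding sortilin, was 1.05-fold higher in the left EC in the authors' deposited table (deposited p = 0.139). The median log2 fold of this list was 0.02.

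Of the 12 measured enzymes that break down amyloid-beta or related peptides, 2 had a deposited p under 0.05, in opposite directions, against 7.86% of all genes in either direction. Mmel1, a relative of neprilysin, was 1.13-fold higher in the left EC in the authors' deposited table (deposited p = 0.0165), with an interval of 0.05 to 0.31. Ece2, an endothelin-converting enzyme, was 1.09-fold lower in the left EC in the authors' deposited table (deposited p = 0.017), with an interval of -0.21 to -0.03. Both had an adjusted p of 0.601. The neprilysin gene Mme and the insulin-degrading enzyme gene Ide, named after their values were seen as the best known enzymes of the list, were 1.13-fold higher and 1.01-fold higher in the left EC in the authors' deposited table (deposited p = 0.311 and 0.724). The interval of Mme, -0.21 to 0.56, was much wider than that of Ide, -0.08 to 0.11.

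**Figure D3:**
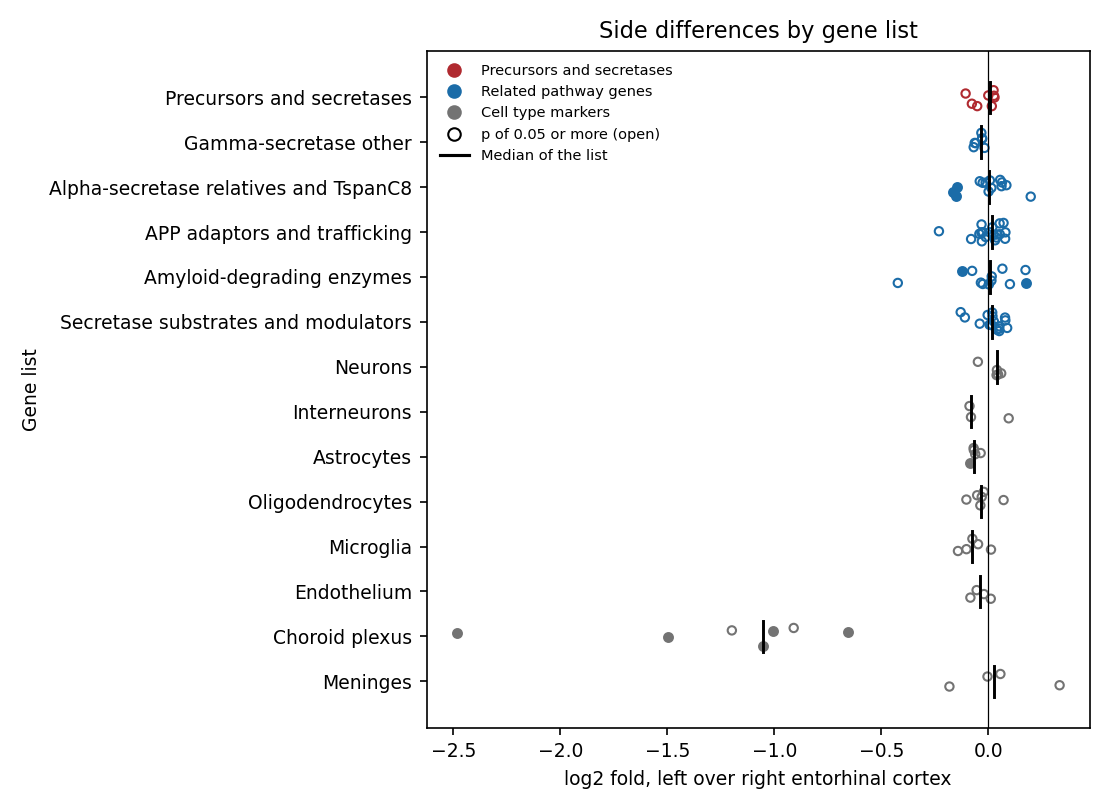
Log2 fold, left over right EC (horizontal axis), of each measured gene in the members, the related pathway lists and the cell type marker lists, with filled points for genes with a p under 0.05 and a black bar at each median. The members and pathway lists sit near 0, with medians of -0.03 to 0.02, while the choroid plexus markers lie between -2.48 and -0.66.

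A single tissue marker group had large folds between the dissected pieces. The choroid plexus markers, from the epithelium that makes cerebrospinal fluid, had 7 of 9 listed genes measured, and all 7 had lower levels in the left EC, with log2 folds of -2.48 to -0.66 and a median of -1.05. A deposited p under 0.05 was found for 5 of them, against 4.09% of all genes in that direction, and 0 passed adjustment over all genes. The lists were chosen with earlier results of these data known, so this count is a description and not a test. Neuronal markers had a median log2 fold of 0.04 (4 of 5 with folds above 1 in the left EC, against 54% of all genes). The median was -0.07 for astrocyte markers (0 of 5 above 1), -0.07 for microglia (1 of 5), -0.03 for oligodendrocytes (1 of 6), -0.04 for endothelium (1 of 4), -0.08 for interneurons (1 of 3) and 0.03 for meninges (2 of 4). Of these other lists, only that of astrocytes held a gene with a deposited p under 0.05, Slc1a2 (0.0496). It was lower in the left EC, a direction in which 4.09% of all genes had such a p, and its adjusted p was 0.634. In pieces of tissue, fewer cells of a type and less RNA per cell cannot be told apart. The part of these cell types in the small folds of the members was not tested.

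Across the arrays as a whole, the median log2 signal ranged from 7.24 to 7.28, and correlations between arrays over 41345 rows ranged from 0.995 to 0.996. limma found 0 rows at an adjusted p under 0.05 and 3023 rows (7.31%) at an unadjusted p under 0.05. The number of arrays, 3 per side, limits the precision of every difference given above.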

How the data were processed

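One file gives, for left versus right, a p-value and a signed fold for every gene, per the file headers. The signed fold is a score made by the authors: values between -1 and 1 do not occur, and a negative value is minus the inverse ratio. Ingenuity iReport was used, per the labels' design text. The authors also deposited log2 signals of 41345 array rows, whose log2 scale was inferred from the values. How signals were summarized and normalized, and which test was run, is not stated in the labels or headers. The row IDs were not paired with genes.

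Of 20414 rows, 291 were exact repeats and were used once, which left 1070 genes with several rows. For these genes the log2 folds were averaged, as were the z values carrying the sign of the fold. Other p-values are as deposited. Adjustment was Benjamini-Hochberg over 18746 genes at 0.05.

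The degrees of freedom were chosen, from 3 to 12 in steps of 0.05, so that the lowest implied SE differed least between bins of absolute log2 fold from 0.005 to 0.2. On simulated moderated tests of 20414 genes with 5, 6, 8 and 10 true degrees of freedom, 4.85, 5.7, 7.7 and 9.95 were recovered, and no even floor appeared for an unmoderated test. On limma p-values of the per-array rows (known value 6.09) it gave 5.9. Whether the deposited test used pairs is not settled by this. Matching deposited pairs of fold and p to plain tests on array rows was uninformative, with 51.7% matched for left minus right and 51.1% for the opposite sign under the equal-variance test.

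The per-array rows were tested with limma 3.58.1 in R 4.3.3, without a block. The labels call the samples biological replicates without naming separate animals, so p-values measure the spread between these samples. Replicate numbers were checked for pairing: correlations of deviations between same-numbered arrays were 0.02, -0.09 and 0.05, so the numbers were not taken as pairs.

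The members, lists and tests were chosen with earlier results of these data known. Named genes were all members and, of each related list, genes with a deposited p under 0.05 or otherwise the 3 with the smallest p. Others are marked in the text. Alternatives covered rows per gene, centring and adjustment, and for limma the normalization, filter, block, variance model and leaving out arrays.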

Additional observations from a re-analysis of the deposited data

How the results depend on the processing

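The count of members past an adjusted p under 0.05 was 0 in each alternative run for it: the row with the smallest or the largest p per gene, and adjustment over rows. None of these could raise the count. A Benjamini-Hochberg adjusted p is never below the deposited p, and the smallest deposited p of a member was 0.13 (Aph1a). Centring leaves every p as it was, so it could not change this count either. Each measured member had a single row, so their own folds did not depend on the choice of row. Centring on the median of all genes moved Adam10 below 0, to -0.0064, by construction, and of no other member, and it brought the members' median log2 fold to 0.0019, against 0.0086 before centring, a shift smaller than any member's SE. The degrees of freedom behind the intervals were inferred after seeing the data. With 4, 8 or 1000 in place of 5.95, the widest bound, that of Bace2, was 1.23-fold, 1.21-fold or 1.20-fold, and the share of genes with a smaller SE than App was 1.61%, 0.492% or 0.973%. For the per-array rows limma called 0 rows after adjustment under every alternative run. At an unadjusted p under 0.05 it called 1808 rows in a fit restricted to the brighter rows (mean above the median), which tests fewer rows, and 2104 to 3829 when each array was left out in turn. It was 2790 with the replicate number as a block, and the remaining alternatives stayed within 1.5 times. The alternatives that needed named array rows were not run, so no member could be tested with an array left out or with a block.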

Other observations

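Other substrates of the secretases and modulators of App cleavage, a further list of the pathway, had 17 of 25 genes measured, and 13 of these had folds above 1 in the left EC, against 54% of all genes. None had a deposited p under 0.05 in the authors' deposited table, against 7.86% of all genes, and the median log2 fold was 0.02. Notch1 and Notch2, receptors that gamma-secretase cuts to release their signalling domain, were 1.08-fold lower and 1.09-fold lower in the left EC in the authors' deposited table (deposited p = 0.0703 and 0.129). Cntn2, a cell adhesion gene, was 1.06-fold higher in the left EC in the authors' deposited table (deposited p = 0.109). Itm2b, encoding the App-binding protein BRI2, was 1.01-fold higher in the left EC in the authors' deposited table, and Chl1, a Bace1 substrate, 1.04-fold, both named after their values were seen.

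The peptidase gene Ace had the lowest fold of all 69 measured pathway genes, 1.34-fold lower in the left EC in the authors' deposited table (deposited p = 0.107), and is named after its value was seen. Its interval of -0.97 to 0.12 includes 0. The choroid plexus markers were lower in the left EC in the same arrays, with a median log2 fold of -1.05, and their part in the value of Ace was not tested.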
